A study of Mus musculus with 12 samples.

Results

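The long H3K79me2 blocks were the autosomal H3K79me2 peaks of at least 10000 bp in mouse melanoma cells with intact KMT2D (WT). They were chosen by their WT H3K79me2 peak length alone, and there were 2039 of them among 25869 autosomal WT H3K79me2 peaks. Chromatin immunoprecipitation with sequencing had mapped 5 histone marks in 2 genotypes, and each mark had 1 library per genotype. Mutant cells came from iBIP;KMT2D L/L mice, in which both KMT2D copies are conditional, and WT cells from iBIP;KMT2D+/+ mice. The iBIP alleles include Tyr-CreERT2, Rosa26-rtta, TetO-BRAFV600E and INK/ARF L/L, on a mixed FVB and B6 background, and both genotypes carry them. Mice of both genotypes received doxycycline, and 4-OHT at 1 uM was put on the ears to start the tumours. Tyr-CreERT2 is a Cre driven by the tyrosinase promoter, which is active in melanocytes, so the conditional alleles were set up to recombine in that lineage. How many animals or cell lines stand behind a library is not given in the sources used here, and the peak lists do not show how far KMT2D was lost.

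Methylation of histone H3 at lysine 79 is placed by DOT1L, which travels with the early elongating RNA polymerase, and the dimethylated form lies over the bodies of transcribed genes from just downstream of the start site. H3K4me3 sits at the start sites themselves, and H3K27ac at active promoters and enhancers. H3K4me1 is typical of enhancers and of the flanks of promoters, and KMT2D is one of the enzymes that place it. Polycomb places H3K27me3 over silent genes. A long block can therefore hold a promoter at its upstream end and enhancers within the gene body. The peak lists carry coordinates on the mouse build mm9 and no gene names, so regions are given by position.

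The blocks made up 7.88% of the autosomal WT H3K79me2 peaks and 44.1% of their length, 39.9 of 90.3 Mb. Their widths chose them and are a description. The median was 15435 bp, the middle range (quartiles) ran from 12124 to 22091 bp, and the longest block was 134503 bp. There were 636 blocks of at least 20000 bp, of which 120 reached 40000 bp. The authors' fold enrichment had a median of 5.33 over blocks, against 4.20 over all WT peaks. The 3 shortest blocks were 10001 bp on chromosome 15 from 58843863 to 58853863, 10002 bp on chromosome 4 from 44236445 to 44246446 and 10016 bp on chromosome 17 from 29406072 to 29416087. Mutant H3K79me2 lay over 13.6%, 97.2% and 91.5% of them. The 3 longest WT peaks below the limit were 9993, 9989 and 9988 bp long, and mutant H3K79me2 lay over 79.9% of the first and all of the others. The 2755 WT peaks of 5 to 10 kb served for comparison as the class next in length.

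With no replicate of any list, no difference between genotypes has a replicate check, and none was tested. A region without a peak is one where nothing passed the authors' threshold, and read depth is unknown. The authors' lists were unequal in size. H3K4me1 had 5358 autosomal peaks in the mutant against 15974 in WT, H3K79me2 21756 against 25869, H3K27ac 22083 against 24759 and H3K4me3 13302 against 14327. H3K27me3 alone had more in the mutant, 14630 against 13204. These totals move with the differences described here, and their part in them was not tested. Ranges after a share are exact (Clopper-Pearson) 95% binomial intervals, which cover counting error only. Peaks close to each other are not independent.

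Mutant H3K79me2 lay over 90% of the summed length of the blocks and over a median of 93.2% of a single block (quartiles 83.8% and 98.4%). It lay over at least 90% of the length in 1254 of the 2039 blocks (61.5%, 59.3 to 63.6). Over all autosomal WT H3K79me2 peaks that share was 23.5%, and in the class of 5 to 10 kb it was 36.0% (34.2 to 37.8). Of the 1254, 180 lay wholly under it, and another 710 blocks had it over 50 to 90% of their length. Only 69 blocks had some mutant H3K79me2 over less than 50% of their length, and 6 had none (0.294%, 0.108 to 0.639), against 36.7% of all autosomal WT H3K79me2 peaks without a mutant peak. In the class of 5 to 10 kb, 45 peaks had none (1.63%, 1.19 to 2.18). With H3K79me2 peaks held to a −log10 q of at least 5, 1.87% of blocks had none. Since the blocks are peaks of the WT list, mutant cover cannot exceed WT cover in them.

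**Figure D1:**
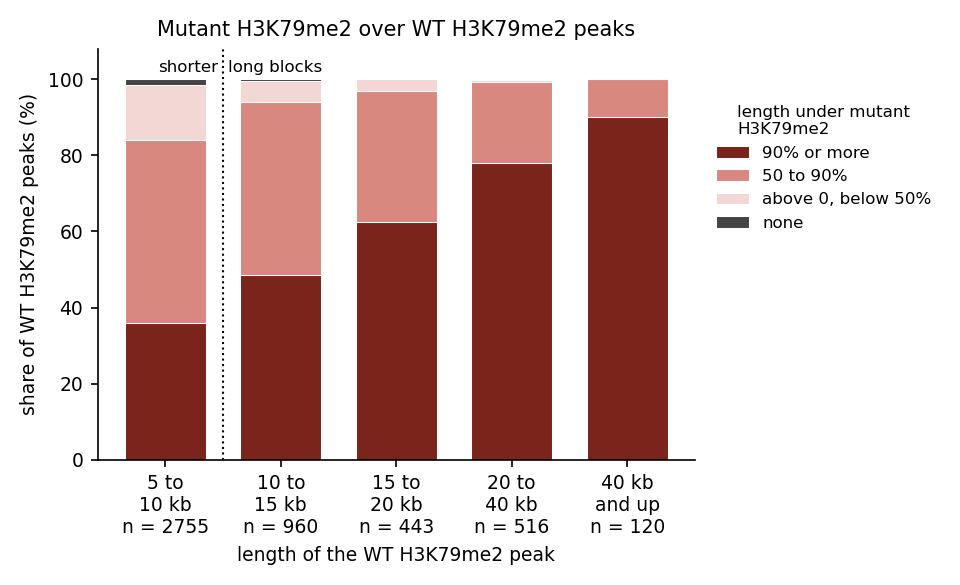
Share of WT H3K79me2 peaks (percent, vertical axis) by how much of the peak lay under mutant H3K79me2, for WT peaks of 5 to 10 kb and 4 length classes of long blocks (horizontal axis, n below each bar). The share covered over at least 90% of the length climbs with length from 36.0% at 5 to 10 kb to 90% at 40 kb and up. A given uncovered length is a smaller share of a longer peak.

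The covered share of a block was higher the longer the block, as the plot of cover by length class shows. A given uncovered length is a smaller share of a longer block, and this was not corrected for. Mutant H3K79me2 lay over 14.6 of 19.2 Mb in the 2755 peaks of 5 to 10 kb. In the 960 blocks of 10 to 15 kb it was 9.85 of 11.7 Mb, and in the 120 of at least 40000 bp 6.37 of 6.65 Mb. At least 90% of the length was covered in 48.6% of 960 blocks of 10 to 15 kb (45.4 to 51.9). The share was 62.5% of 443 blocks of 15 to 20 kb (57.8 to 67.1) and 77.9% of 516 blocks of 20 to 40 kb (74.1 to 81.4). Among the 120 blocks of at least 40000 bp it was 90% (83.2 to 94.7), and the lowest cover of any of them was 65.6%. Cover also went with the strength of the WT peak. In 5 equal groups of blocks by the authors' −log10 q, the share covered over at least 90% was 31.4%, 49.5%, 67.6%, 78.2% and 80.9%, weakest group first. Length and strength go together, with a median width of 12933 bp in the weakest group and 18271 bp in the strongest. When blocks and peaks of 5 to 10 kb were put into 5 common groups by −log10 q, blocks had the higher share in each. In the weakest of these groups it was 20.9% (14.4 to 28.6) of 139 blocks against 16.7% (14.2 to 19.5) of 819 shorter peaks, and the intervals overlap. In the second weakest it was 36.9% (31.6 to 42.3) of 331 blocks against 32.3% (28.6 to 36.1) of 629 shorter peaks. There the intervals overlap too, and in the stronger groups they do not. In the strongest the share was 80.3% (76.9 to 83.5) of 575 blocks against 62.0% (56.9 to 66.9) of 384 shorter peaks.

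The missing mutant length lay mostly in gaps within blocks and at their far ends. A single mutant peak met 1023 of the blocks, and 2 or more met 1010 of them (581 had 2, 247 had 3, 112 had 4 and 70 had 5 or more). In 961 blocks (47.1%, 44.9 to 49.3) 1 mutant peak spanned at least 90% of the block. The 1735 gaps between mutant peaks inside blocks had a median of 1067 bp and a maximum of 6474 bp. In the 1469 blocks with WT H3K4me3 at exactly 1 end, 2348 kb had no mutant H3K79me2. Of that length 54.9% lay between mutant peaks, 27% ran in from the end away from H3K4me3 and 17.1% from the H3K4me3 end. A mutant peak began within 1000 bp of the H3K4me3 end in 94.2% of the 1467 such blocks with a mutant peak (92.9 to 95.3) and reached within 1000 bp of the far end in 85.1% (83.2 to 86.9). Cut into 10 equal bins from the H3K4me3 end, these blocks had mutant H3K79me2 over 86.5% of bin 1, 97.1% of bin 2, 89.9% of bin 9 and 76.3% of bin 10. Length without mutant H3K79me2 carried less H3K4me1 than length with it. Mutant H3K4me1 lay over 2.42% of the uncovered and 6.81% of the covered length, and WT H3K4me1 over 8.94% and 15.9%. H3K27ac differed little between them, at 19.1% and 17.2% in the mutant and 18.8% and 16.5% in WT.

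The reverse choice gave a like set with fuller cover. The mutant list held 1689 autosomal H3K79me2 peaks of at least 10000 bp, and 1509 of them overlapped a long WT block. WT H3K79me2 lay over 96.8% of their length and over at least 90% of the length in 1486 (88.0%, 86.3 to 89.5), against 54.8% of all autosomal mutant H3K79me2 peaks. None of the 1689 lacked a WT peak. A WT peak began within 1000 bp of the H3K4me3 end in 99.4% and reached within 1000 bp of the far end in 96.2% of the 1248 long mutant peaks with H3K4me3 at 1 end. The joining of neighbouring stretches differed in both directions. There were 93 WT blocks that overlapped 2 or more long mutant peaks, and 54 long mutant peaks that overlapped 2 or more WT blocks. The lowest WT cover of a long mutant peak was 38.7%, on chromosome 13 from 95025115 to 95046958, a region without H3K4me3, H3K27ac or H3K4me1 in either genotype.

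The longest blocks without mutant H3K79me2 were weak WT peaks, and 3 of the 5 had no other mark. The 5 longest of the 6 without a mutant peak were 21855 bp on chromosome 1 from 168950938 to 168972792, 13347 bp on chromosome 13 from 34418063 to 34431409, 13262 bp on chromosome 4 from 140191849 to 140205110, 11119 bp on chromosome 8 from 97876348 to 97887466 and 11095 bp on chromosome 14 from 71331298 to 71342392. Their folds ran from 4.18 to 4.49, below the median of 5.33 over blocks. Those on chromosomes 1, 13 and 14 had no peak of the other 4 marks in either genotype. Those on chromosomes 4 and 8 had H3K4me3 at an end and H3K27me3 in both genotypes. Among the 69 blocks with less than 50% mutant cover, the longest was on chromosome 2 from 63907541 to 63935282, with 6 mutant H3K79me2 peaks over 44.3% of its 27742 bp. The next longest, on chromosome 15 from 56503358 to 56525969, had 6 mutant peaks over 22.5% of its 22612 bp. In each of the 5 longest of these 69 blocks the WT H3K4me3 peak at an end was also present in the mutant, and none had mutant H3K4me1 in the block. None held an active distal element in either genotype, meaning an H3K27ac peak that overlaps H3K4me1 and no H3K4me3 of the same genotype. Over all 2039 blocks, 39.2% had mutant H3K4me1, and 15.2% held an active distal element in the mutant and 24.1% in WT. Most blocks of any cover thus also lacked each of these.

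Promoter peaks were found at the block ends at almost the same shares in both genotypes. The H3K4me3 peaks there had a median score of 1599 in the mutant and 2233 in WT, against 665 and 867 away from blocks. An H3K4me3 peak lay within 1000 bp of an end in 1501 blocks by the mutant list (73.6%, 71.6 to 75.5) and in 1499 by the WT list (73.5%, 71.5 to 75.4). Over all autosomal WT H3K79me2 peaks these shares were 34.6% with the mutant and 34.5% with the WT list, and in the class of 5 to 10 kb 57.9% with either list. H3K4me3 sat at exactly 1 end in 1464 blocks in the mutant and 1469 in WT, and at both ends in 37 and 30. It lay inside only in 87 blocks in the mutant and 101 in WT. Of the 1499 blocks with WT H3K4me3 at an end, 1489 had mutant H3K4me3 at the same end. Of the blocks with H3K4me3 at an end, the H3K4me3 peak there overlapped H3K27ac in 96.7% in the mutant and 98.5% in WT. Counted by peak, H3K27ac overlapped 96.0% of the end peaks in the mutant and 98.2% in WT. The shares were 88.3% and 92.3% at other places with H3K79me2 of the same genotype, and 50.9% and 54.4% at the remaining places.

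The H3K4me3 peaks at block ends were wider than those elsewhere. Their median width was 3047 bp in the mutant (1541 peaks) and 2934 bp in WT (1540 peaks), against 2461 and 2181 bp at other places with H3K79me2 of the same genotype and 1731 and 1428 bp at the remaining places. A width of at least 4000 bp was reached by 20.2% of the end peaks in the mutant and 19.4% in WT. It was reached by 10.8% and 7.36% at the other places with H3K79me2, and by 2.06% and 0.806% at the remaining places. In 1425 pairs that matched 1 to 1 at block ends, the mutant peak was wider in 59.9%, with a median ratio of mutant over WT width of 1.03. Away from blocks the mutant peak was wider in 72.4% of 10297 pairs, with a median ratio of 1.08. H3K4me1 of the same genotype overlapped 23.9% of the end peaks in the mutant and 36.0% in WT. It overlapped 14.9% and 30.4% at the other places with H3K79me2, and 2.87% and 13.0% at the remaining places.

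**Figure D2:**
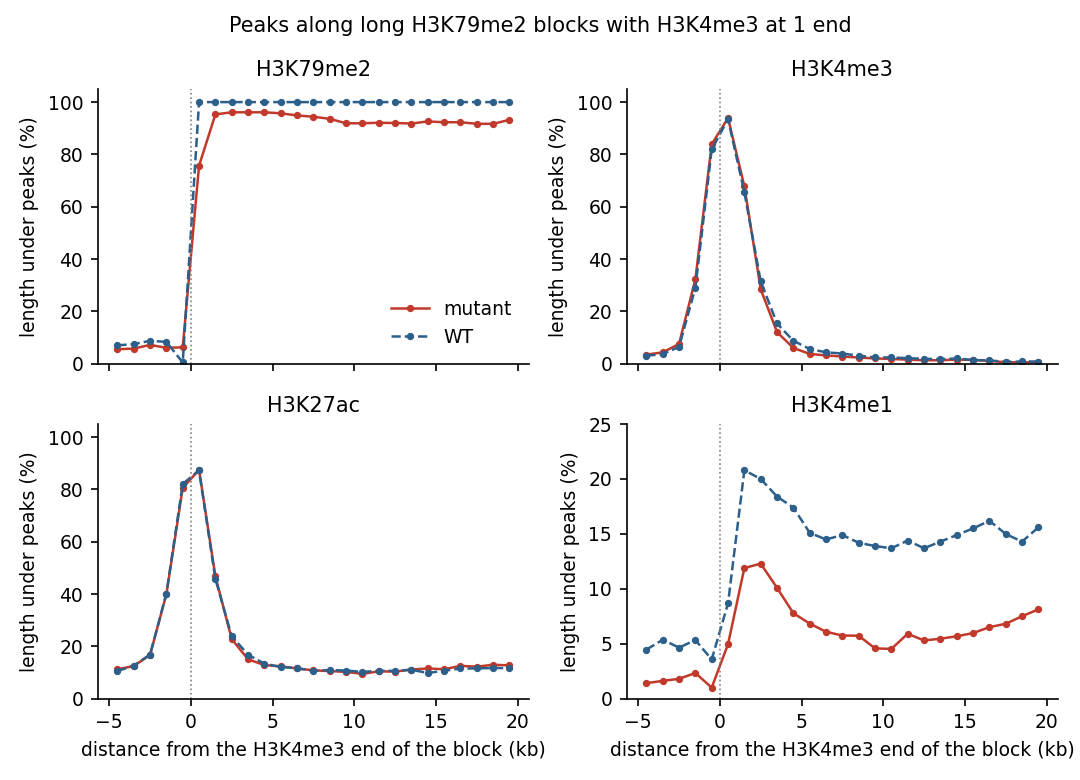
Share of length under peaks (percent, vertical axes; the H3K4me1 panel has its own scale) in 1 kb steps from the H3K4me3 end of the 1469 blocks with WT H3K4me3 at 1 end (horizontal axis, kb, positive inside the block), in the mutant (solid) and in WT (dashed). H3K27ac runs together in both, while H3K4me1 is lower in the mutant at every step. H3K4me3 runs close together at the end and is lower in the mutant at most steps beyond 2000 bp inside. From 4000 to 5000 bp it is 6.06% in the mutant and 8.79% in WT. WT H3K79me2 covers all of the inside by construction.

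The plot of peaks along the blocks places the marks. H3K27ac lay over 87.5% of the first 1000 bp inside the H3K4me3 end in the mutant and 87.3% in WT. H3K4me1 was sparse over that first 1000 bp, with 4.97% in the mutant and 8.69% in WT. It was highest just beyond, over 12.3% of the length from 2000 to 3000 bp in the mutant, and over 20.8% from 1000 to 2000 bp in WT. Outside the H3K4me3 end it was low, at 1.02% over the last 1000 bp before the block in the mutant and 3.58% in WT. H3K4me3 itself lay over 83.9% of that stretch in the mutant and 81.9% in WT. On the outer flank, from 2000 to 1000 bp before the block, H3K4me1 lay over 2.35% in the mutant and 5.35% in WT. Both genotypes thus had more H3K4me1 on the flank of the promoter that lies in the block than on the outer flank, and the mutant had less on each. In bin 10, at the far end of the block, H3K4me1 lay over 2.93% of the length in the mutant and 9.87% in WT.

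H3K4me3 peaks inside blocks, away from the ends, differed more between the lists. The WT list had 593 of them, with a median score of 184 (the authors' score is 10 times −log10 p), against 2233 for the end peaks. The mutant list had 321. A mutant H3K4me3 peak overlapped 49.6% of the WT inside peaks (45.5 to 53.7) and 99.0% of the WT end peaks (98.3 to 99.4). It overlapped 85.2% of the 2133 WT H3K4me3 peaks at or in blocks, against 88.6% of all autosomal WT H3K4me3 peaks. The inside peaks were mostly weak, and 367 of the 593 fell in the weakest of 5 equal score groups. Within that group a mutant peak overlapped 26.7% of the inside peaks (22.2 to 31.5), 64.1% of the 39 end peaks (47.2 to 78.8) and 53.8% of those elsewhere (51.8 to 55.8). In the strongest 2 groups it overlapped all of the 21 and 75 inside peaks. WT H3K4me1 overlapped 60.2% of the WT inside peaks and 36.0% of the WT end peaks.

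The 540 blocks without WT H3K4me3 at an end more often lay next to another H3K79me2 peak. Another WT H3K79me2 peak lay within 1000 bp of 50.4% of them (46.1 to 54.7) and of 24.7% of the 1499 blocks with H3K4me3 at an end (22.6 to 27). Mutant H3K79me2 lay over at least 90% of the length in 43.0% of the 540 (38.7 to 47.3) and 68.2% of the 1499 (65.8 to 70.5). They were also shorter, with a median of 13940 bp against 16322 bp. Within blocks of 10 to 15 kb the shares were 32.0% (26.9 to 37.4) without and 56.9% (53.0 to 60.8) with H3K4me3 at an end. The 3 longest blocks with no H3K4me3 in either genotype differed in H3K27ac. That on chromosome 6 from 134023458 to 134089303, 65846 bp long, had mutant H3K79me2 over 96.9% of its length. H3K27ac lay over 33451 bp of it in the mutant and 38527 bp in WT, and it held 3 active distal elements in the mutant against 9 in WT. That on chromosome 9 from 45856046 to 45920993 held 4 in the mutant and 5 in WT. That on chromosome 12 from 76626395 to 76682128, 55734 bp long, had H3K27ac over 1221 bp in the mutant and 1625 bp in WT, and no active distal element in either.

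Within the blocks, H3K4me1 differed more between genotypes than the other marks of active chromatin. It lay over 6.38% of the block length in the mutant and 15.2% in WT, a ratio of 0.420. Outside the blocks the same ratio of autosomal H3K4me1 length was 0.260. In the long mutant H3K79me2 peaks, chosen without the WT list, it was 0.444. H3K27ac lay over 17.4% of the block length in the mutant and 16.8% in WT (ratio 1.04, and 1.02 outside blocks). H3K4me3 lay over 9.74% in the mutant and 10.4% in WT (ratio 0.939, against 1.07 outside blocks). H3K4me1 covered fewer bp in the mutant in 1136 of the 1318 blocks that had it in either genotype, and more in 182. H3K27ac covered fewer bp in 844 and more in 906 of 1751 blocks.

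By midpoint, 1688 mutant and 3334 WT H3K4me1 peaks lay in blocks. A mutant H3K4me1 peak overlapped 36.3% of these WT peaks (34.7 to 38.0), against 23.0% of all autosomal WT H3K4me1 peaks. The share was 26.8% in shorter WT H3K79me2 peaks (25.3 to 28.3) and 17.0% outside WT H3K79me2 (16.2 to 17.8). WT H3K4me1 peaks were stronger in blocks, with a median score of 185 against 155 outside them, and score goes with the share. The plot of kept peaks by score therefore compares peaks of like strength. In 5 equal score groups the share in blocks was 15.1%, 16.3%, 22.6%, 36.0% and 67.4%, weakest first. Outside WT H3K79me2 it was 6.37%, 8.66%, 12.2%, 18.7% and 45.5%, lower in each group with no overlap of the intervals. Shorter WT H3K79me2 peaks had 11.4%, 16.5%, 20.6%, 29.5% and 55.1%, between the others in each group but the second weakest. In the 4 weakest groups their intervals overlapped those of the blocks. The score is measured in WT alone, and a like score need not mean a like signal in the mutant. With both H3K4me1 lists made equal in size, by keeping the strongest peaks, the share was 58.7% in blocks and 37.1% outside them, and under a threshold of score 200 it was 23.9% and 11.0%.

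**Figure D3:**
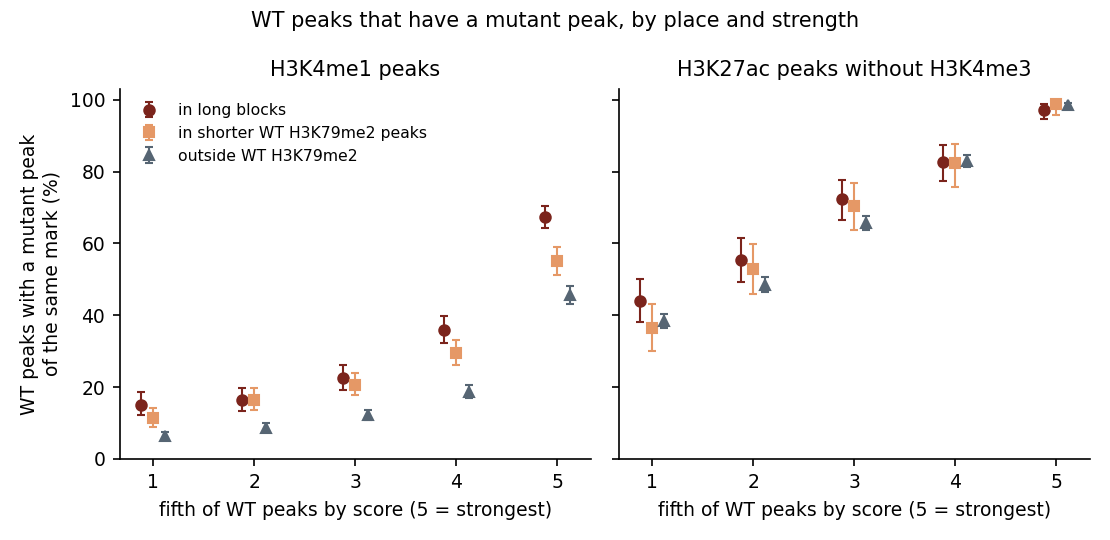
Share of WT peaks that overlap a mutant peak of the same mark (percent, vertical axes) by score group of the WT peak (horizontal axes), in long blocks, in shorter WT H3K79me2 peaks and outside WT H3K79me2, for H3K4me1 (left) and for H3K27ac without H3K4me3 (right). Bars are exact 95% binomial intervals. For H3K4me1 the blocks lie above the places outside H3K79me2 in each group, with 67.4% in blocks and 45.5% outside H3K79me2 in the strongest. For H3K27ac the places lie close together, with 97.2% and 98.6% there.

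Pooled over strength, the share was higher in blocks than outside them for each kind of WT H3K4me1 peak. Of those that overlapped WT H3K4me3, a mutant H3K4me1 peak overlapped 51.2% in blocks (47.8 to 54.6) and 24.6% outside them (23.1 to 26.2). Of those with H3K27ac and no H3K4me3, it overlapped 46.3% in blocks (43.3 to 49.4) and 26.3% outside (25.1 to 27.6). Of those with neither mark, which is the pattern of primed enhancers, it overlapped 19.7% in blocks (17.6 to 21.8) and 9.54% outside (8.72 to 10.4), against 11.8% of all such autosomal peaks. Most of the last kind were thus below the mutant threshold both inside and outside blocks. Each kind was stronger in blocks, with median scores of 230 against 162, 240 against 177 and 152 against 136 outside, in that order. Within each score group blocks stayed above the places outside them for each kind, but some intervals overlapped. For the last kind in the second weakest group it was 8.56% (5.77 to 12.1) against 6.52% (5.16 to 8.10). Shorter WT H3K79me2 peaks had 9.71% there. For H3K27ac peaks without H3K4me3 the pooled shares were close. A mutant H3K27ac peak overlapped 70.2% of the 1330 WT ones in blocks (67.6 to 72.6), 67.0% of those outside blocks (66.1 to 67.8) and 67.3% of all. Split by H3K4me1, both kinds had the lower share in blocks. Of those without WT H3K4me1, a mutant H3K27ac peak overlapped 50% in blocks (45.1 to 54.9) and 59.1% outside (58 to 60.2), with no overlap of the intervals. Of those with it, the shares were 79.6% in blocks (76.9 to 82.2) and 83.0% outside (81.8 to 84.1). Blocks held more of the second kind, which were 904 of 1330 there and 4097 of 12420 outside. Both kinds were weaker in blocks than outside, with a median WT score of 151 against 179.8 for the first and 248 against 309 for the second. Neither kind was compared within score groups. Pooled, the shares in 5 score groups were 44.0%, 55.5%, 72.4%, 82.8% and 97.2% in blocks, weakest first. Outside blocks they were 38.1%, 48.9%, 66.2%, 82.9% and 98.6%.

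Active distal elements, the pattern of active enhancers, numbered 520 in blocks in the mutant and 904 in WT, a ratio of 0.575. They are counted as H3K27ac peaks, and the mutant ones were wider, with a median of 2256 bp against 1599.5 bp. A single mutant peak can thus stand where WT has several, and the part of this in the ratio was not tested. With the 2 lists of each mark made equal in size by keeping the strongest peaks, there were 520 in the mutant and 600 in WT. Under a threshold of score 200 there were 192 and 476. Outside blocks there were 1414 in the mutant and 4097 in WT, a ratio of 0.345. In the long mutant H3K79me2 peaks there were 488 and 785, a ratio of 0.622. H3K27ac peaks with neither H3K4me1 nor H3K4me3 went the other way, with 680 in blocks in the mutant and 426 in WT, a ratio of 1.60. They did so elsewhere too, with 9849 in the mutant and 8323 in WT outside blocks, a ratio of 1.18, and with a ratio of 1.38 in shorter WT H3K79me2 peaks. A WT H3K4me1 peak overlapped 55.3% of those 680 mutant elements, against 27.7% of such mutant elements outside blocks, and a mutant H3K4me1 peak overlapped 9.15% of the 426 WT ones, against 3.39% of those outside. Blocks were dense in active distal elements in both genotypes. They held 13.0 per Mb in the mutant and 22.7 per Mb in WT, against 3.96 and 9.77 per Mb in shorter WT H3K79me2 peaks. These elements exclude H3K27ac that meets H3K4me3. H3K4me3 lay over 9.74% of the block length in the mutant and 10.4% in WT, against 17.4% and 16.3% in the shorter peaks. H3K27ac peaks of any kind were not denser in blocks, at 58.5 per Mb in the mutant and 65.2 in WT, against 63.4 and 69.1. Of all autosomal active distal elements, 26.9% lay in blocks in the mutant and 18.1% in WT.

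**Figure D4:**
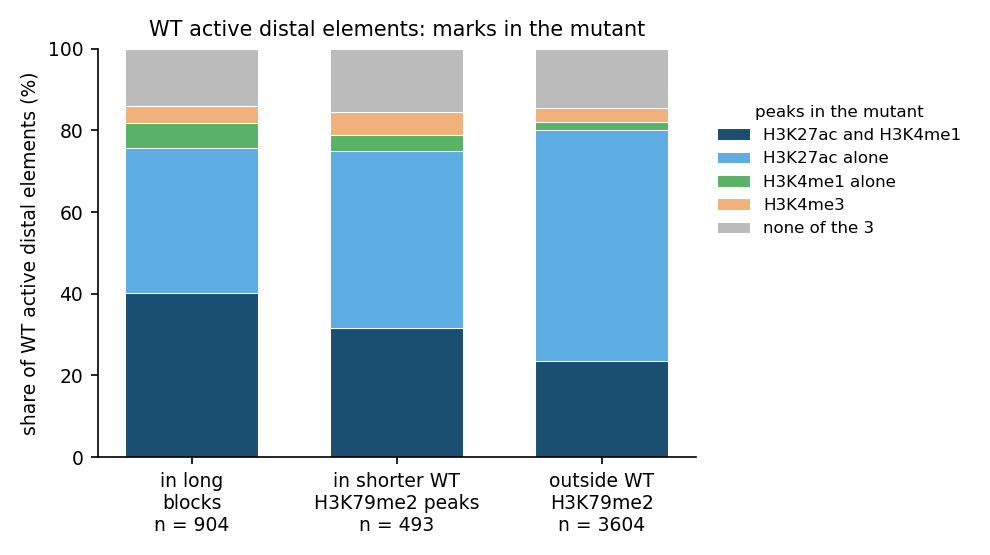
Marks found in the mutant at WT active distal elements (percent of elements, vertical axis) in long blocks, in shorter WT H3K79me2 peaks and outside WT H3K79me2 (n below each bar). The share with H3K27ac alone is 35.5% in blocks and 56.5% outside H3K79me2, and the share with both H3K27ac and H3K4me1 is 40.2% in blocks and 23.6% outside. Elements are pooled over peak strength.

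The plot of marks at WT active distal elements shows what the mutant list held at the same places. Of the 904 in blocks, 363 (40.2%, 36.9 to 43.4) still had H3K27ac and H3K4me1 without H3K4me3, against 27.4% of all autosomal ones. H3K27ac alone of the 3 marks remained at 321 (35.5%, 32.4 to 38.7), against 51.4% of all. None of the 3 marks was left at 127 (14.0%, 11.8 to 16.5), against 14.5% of all. Outside blocks, both marks were kept at 24.6% (23.3 to 25.9) and H3K27ac alone at 54.9% (53.4 to 56.5), while 14.6% (13.6 to 15.8) had none of the 3. Any mutant H3K4me1 peak overlapped 49.0% in blocks (45.7 to 52.3) and 28.2% outside (26.8 to 29.6). Pooled over strength, blocks thus stood above the rest of the autosomes in mutant H3K4me1 at these elements, and not in mutant H3K27ac. The latter was at 79.6% in blocks and 83.0% outside, where the intervals overlap. Shorter WT H3K79me2 peaks lay between, with mutant H3K4me1 at 38.1% (33.8 to 42.6) of the 493 elements there. Outside WT H3K79me2 it was at 26.9% (25.4 to 28.3) of 3604. H3K27ac alone was at 43.4% in the shorter peaks and 56.5% outside WT H3K79me2. In the long mutant H3K79me2 peaks mutant H3K4me1 overlapped 52.5% of 785 WT active distal elements (48.9 to 56.0). These sets share most of their sequence, so they are not independent. WT active distal elements were not compared within score groups, and strength differs in opposite directions for the 2 marks. Their H3K27ac was weaker in blocks than outside, with a median score of 248 against 309. WT H3K4me1 peaks with H3K27ac and no H3K4me3 were stronger in blocks, at 240 against 177.

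From the mutant side, 347 of the 520 active distal elements in blocks (66.7%, 62.5 to 70.8) had H3K27ac and H3K4me1 without H3K4me3 in WT, about the share outside blocks (66.3%, 63.7 to 68.7). Another 70 of the 520 (13.5%, 10.6 to 16.7) had H3K4me1 alone in WT, against 9.69% outside (8.20 to 11.4). WT H3K4me3 was overlapped by 68 of the 520 (13.1%, 10.3 to 16.3), against 2.97% outside (2.15 to 3.99). None of the 3 marks was found in WT at 13 of the 520 (2.5%, 1.34 to 4.24), against 6.22% outside (5.02 to 7.61). In blocks with WT H3K4me3 at 1 end, active distal elements lay a median of 14572 bp from that end in the mutant and 13142 bp in WT. Within 10000 bp of the end their density was 7.56 per Mb in the mutant and 15.5 in WT, and beyond 10000 bp it was 17.1 and 27 per Mb. These elements exclude H3K27ac that meets H3K4me3, which lay over 93.9% of the first 1000 bp in the mutant and 93.5% in WT. Their lower density near the end thus follows in part from how they are defined. H3K4me1 peaks of any kind went the other way. They had 51.8 per Mb within 10000 bp and 39.3 beyond in the mutant, and 89.4 and 78.8 in WT.

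Block by block, H3K4me1 of both genotypes was present in 717 blocks, of WT only in 519, of the mutant only in 82 and of neither in 721. The 519 were 42.0% of the 1236 blocks with WT H3K4me1, against 63.9% of all autosomal WT H3K79me2 peaks with WT H3K4me1. These sets differ in length, and so in how many H3K4me1 peaks a region can hold. The share in blocks was 25.4% with lists of equal size and 64.0% under a threshold of score 200. Blocks with more WT H3K4me1 peaks less often lacked it wholly in the mutant. No mutant H3K4me1 was found in 66.1% of blocks with 1 WT peak, 45.1% with 2, 24.2% with 3 or 4 and 5.61% of the 196 with 5 or more. Active distal elements were fewer in the mutant in 341 blocks, more in 90 and equal in number, but not 0, in 110. At least 1 was present in 309 blocks in the mutant and 491 in WT.

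Mutant H3K79me2 cover differed with H3K4me1 to a limited extent. It reached at least 90% of the length in 58% (53.6 to 62.3) of the blocks with H3K4me1 in WT only, in 73.4% (70.0 to 76.6) of those with H3K4me1 in both genotypes and in 51.2% (47.5 to 54.9) of those with H3K4me1 in neither. In the 82 blocks with H3K4me1 in the mutant only it was 70.7% (59.6 to 80.3). Summed over blocks, 89.4%, 93.8%, 84.3% and 92.9% of the length was covered in these 4 classes. The blocks with H3K4me1 in both were longer and had stronger WT H3K79me2 (median −log10 q of 10.1, against 8.56 with H3K4me1 in WT only and 7.87 with it in neither). In 5 groups by −log10 q, the share with H3K4me1 in WT only was below the share with it in both in each. In the weakest group it was 34.0% (24.9 to 44.0) against 46.8% (35.5 to 58.4), and in the strongest 77.0% (66.8 to 85.4) against 83.5% (78.1 to 88.0). The intervals overlapped in each of the 5 groups. The blocks with H3K4me1 in neither had the lowest share in the 2 weakest groups, 24.4% and 44.8%. In the other groups they had 65.1%, 80% and 77.5%, against 65.0%, 73.4% and 77.0% with H3K4me1 in WT only. In blocks with WT H3K4me1 and none in the mutant, most of the H3K79me2 length was thus under a mutant H3K79me2 peak.

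H3K27me3 was rare in the blocks. It lay over 0.367% of the block length in the mutant and 0.241% in WT, and met 71 and 67 blocks. The ratio of its length in blocks, mutant over WT, was 1.52, against 1.36 outside blocks, where the mutant list was also the longer. The block richest in mutant H3K27me3 lay on chromosome 11 from 97415646 to 97435176. The mark lay over 15514 bp in the mutant and 7838 bp in WT. Mutant H3K79me2 lay over 41.1% of that block. In the next, on chromosome 8 from 114256806 to 114267968, H3K27me3 lay over 9069 bp in the mutant and 4014 bp in WT, and mutant H3K79me2 over 81.0%. Over all blocks, H3K27me3 lay over 1.21% of the length without mutant H3K79me2 and 0.274% of the length with it in the mutant, and over 0.926% and 0.166% in WT.

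The 5 longest blocks had mutant H3K79me2 over at least 96.1% of their length and differed in their elements. The longest, on chromosome 8 from 125431301 to 125565803, had mutant H3K79me2 over 99.2% of its 134503 bp. Its H3K4me1 covered 29241 bp in 20 peaks in the mutant and 45387 bp in 28 peaks in WT, and it held 8 active distal elements in the mutant and 11 in WT. The second, on chromosome 8 from 119780991 to 119910309, had H3K27ac over 82698 bp in the mutant and 76269 bp in WT, more than its H3K4me1 (32610 bp in the mutant and 69855 bp in WT). It held 7 active distal elements in the mutant and 9 in WT. The third, on chromosome 3 from 136333399 to 136461342, had little of either mark, with 2 active distal elements in the mutant and 3 in WT. The fourth, on chromosome 5 from 119010821 to 119122298, went against the general order. Its H3K27ac covered 5977 bp in the mutant and 1388 bp in WT, with 3 active distal elements in the mutant and 0 in WT, although its H3K4me1 was lower, at 14257 bp in the mutant and 30057 bp in WT. The fifth, on chromosome 4 from 8617810 to 8729201, had 0 active distal elements in the mutant and 2 in WT, and its H3K4me1 covered 1049 bp in the mutant and 11440 bp in WT.

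The block with the most WT active distal elements was 45382 bp long, on chromosome 7 from 29701913 to 29747294, with 6 in the mutant and 13 in WT. The map of its peaks shows H3K27ac along most of the block in both genotypes, over 33539 bp in the mutant and 30741 bp in WT. Its H3K4me1 covered 13537 bp in 11 peaks in the mutant and 31438 bp in 14 peaks in WT. The strongest WT H3K4me1 peak there, 5714 bp wide from 29729583 to 29735296 with a score of 1497, met mutant peaks of 2529 and 983 bp with scores of 187 and 131. Mutant H3K27ac there ran on in peaks of 3565 and 6166 bp, the wider with a score of 1561. The block on chromosome 2 from 90310697 to 90382804 had no mutant H3K4me3 peak and a single WT one of which 774 bp lay in it. It held 7 active distal elements in the mutant and 11 in WT, with H3K27ac over 57446 bp in the mutant and 54551 bp in WT. The block on chromosome 14 from 26278983 to 26345670 had 6 in the mutant and 9 in WT. There H3K27ac covered 56279 bp in 8 peaks in the mutant and 41492 bp in 13 peaks in WT, so the mutant H3K27ac peaks there were fewer and wider.

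**Figure D5:**
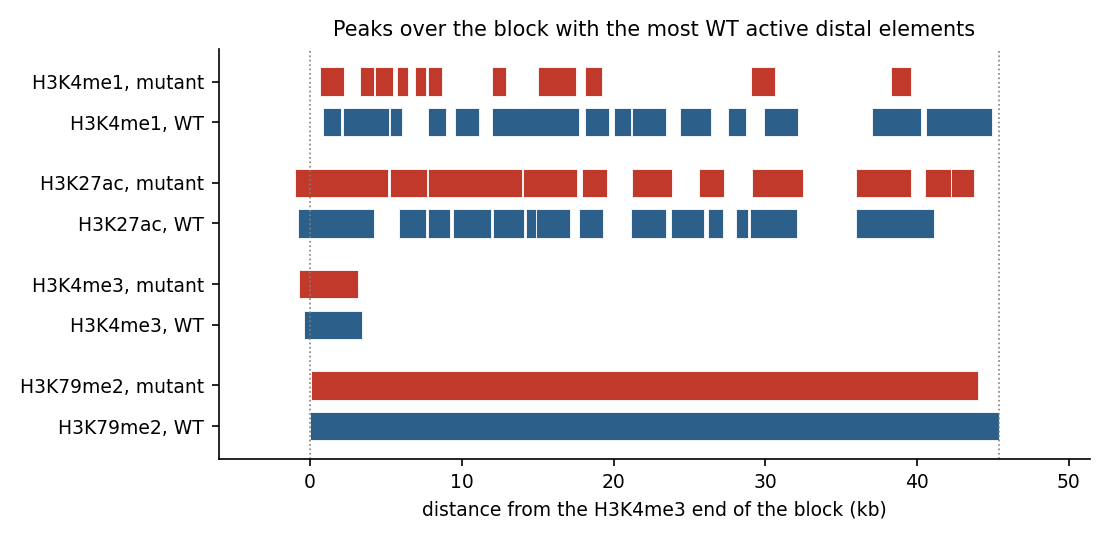
Peaks of 4 marks in the mutant and in WT over the block with the most WT active distal elements. The horizontal axis is distance from the H3K4me3 end (kb), and dotted lines mark the ends of the block. H3K79me2, H3K4me3 and H3K27ac occupy nearly the same places in both genotypes, while mutant H3K4me1 covers 13537 bp and WT H3K4me1 31438 bp.

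Very long stretches of H3K27ac lay in some blocks. Of the blocks of at least 20000 bp, that on chromosome 6 from 125419080 to 125445182 had the highest share under WT H3K27ac, with 23055 bp in the mutant and 25195 bp in WT of its 26103 bp. That on chromosome 14 from 26668897 to 26689690 had 18903 bp in the mutant and 19334 bp in WT of its 20794 bp. That on chromosome 2 from 38366902 to 38408278 had 38709 bp in the mutant and 37730 bp in WT of its 41377 bp. The 3 differed in H3K4me1 all the same, which covered 5270, 5524 and 11319 bp in the mutant, against 13593, 14661 and 23250 bp in WT.

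The differences were spread over the autosomes. Each of the 19 held 60 to 170 blocks, and mutant H3K79me2 lay over 88.0 to 92.8% of their block length. The ratio of H3K4me1 length in blocks, mutant over WT, ran from 0.294 on chromosome 13 to 0.533 on chromosome 12, below 1 on each. That of H3K27ac ran from 0.937 to 1.11, and that of H3K4me3 from 0.808 to 1.07.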

How the data were processed

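The data start from 10 peak lists that the authors deposited, 5 marks in mutant and WT cells, each from 1 library. The submitters' processing notes name Bowtie, MACS, MACS2, deepTools and the build mm9, and give no versions. For H3K4me1, H3K27ac and H3K4me3 each deposited peak has a score, read as 10 times the −log10 p (lowest 90). For H3K79me2 and H3K27me3 each deposited broad peak has a fold enrichment (ratio) and −log10 p and −log10 q values. Fold, score and q are the authors' own and served only to describe, rank or filter peaks. Input samples were not used here.

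Blocks were H3K79me2 peaks of at least 10000 bp in the WT list. A peak was at an end when it met a window of 1000 bp on either side of it. Elements were placed in a block by midpoint, and an overlap of 1 bp made a peak shared. Score groups were 5 equal groups of the autosomal WT peaks of H3K4me1, of H3K4me3 or, for H3K27ac, of the peaks without H3K4me3. Regions were named by rule: the 5 longest blocks, those without mutant H3K79me2 or with under 50%, those with the most active distal elements, the most H3K27ac or H3K27me3, or no H3K4me3, and those nearest the length limit. The members, classes and rules were chosen with earlier results of these data known. The authors' threshold, a stricter one, other lengths, windows and overlaps, joined peaks and lists of equal size were tried, with a still stricter threshold and the values outside blocks added after seeing the data. Overlap code was tested on simulated lists. The work used numpy 2.4.6 and scipy 1.17.1 in Python 3.11.15, and matplotlib 3.10.9 for figures. Gene tables of another build were not used, so no gene or sequence is given. The list of alleles that both genotypes carry is not reported here in full.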

Additional observations from a re-analysis of the deposited data

How the results depend on the processing

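No paired analysis was possible because each genotype had 1 sample per mark, and no replicate could be left out. Of the 113 values recomputed under alternatives 69 stayed within their interval, or within 1.5 times for counts, and 44 moved. Under each alternative run on them, blocks held fewer active distal elements in the mutant than in WT, and stood above the rest of the autosomes in kept H3K4me1 peaks and below it in H3K27ac alone. H3K4me3 at an end was at nearly the same share in both genotypes, and which was higher varied. Blocks with mutant H3K79me2 over at least 90% were 57.6% with peaks joined across 1000 bp, 55.7% at a minimum of 8000 bp and 72.9% at 15000 bp; those without mutant H3K79me2 were 0.0927% at 15000 bp and 1.87% under the still stricter threshold. H3K4me3 at an end was found in 71.1% in the mutant and 70.9% in WT at 8000 bp, in 79.5% in each at 15000 bp, and in 75.6% and 76.0% with an end window of 2000 bp. Mutant H3K4me3 at WT peaks of blocks was 87.3% under the stricter and 94.4% under the still stricter threshold, 86.7% at 8000 bp, 80.9% at 15000 bp, 91.6% with lists of equal size and 83.6% when 50% had to be covered. The still stricter threshold left 192 active distal elements in the mutant and 476 in WT; lists of equal size left 600 in WT. Mutant H3K27ac alone remained at 27.7% of WT active distal elements in blocks and 45.3% outside with lists of equal size, 47.7% and 66.3% at 50% cover, and 49.4% and 68.6% under the still stricter threshold. WT H3K4me1 peaks with a mutant peak were 58.7% in blocks and 37.1% outside with lists of equal size, 25.8% and 14.4% at 50% cover, and 23.9% and 11.0% under the still stricter threshold; outside they were 18.2% under the stricter one and 20.4% at 15000 bp. WT distal H3K27ac in blocks had a mutant peak in 76.8%, 65.2% and 74.3% under those 3 settings. Blocks with WT and no mutant H3K4me1 were 44.8% at 8000 bp, 36.9% at 15000 bp, 25.4% with lists of equal size and 64.0% under the still stricter threshold. Long mutant peaks with WT cover of at least 90% were 86.2% with joined peaks, 84.3% at 8000 bp and 92.5% at 15000 bp. The cause was not tested. Read depth is unknown, so each share is limited by peaks that missed the authors' threshold.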
